A study of Mus musculus with 24 samples.

Results

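Nucleolus-associated domains (NADs) that mouse embryonic stem cells (ESCs) held and neural progenitor cells (NPCs) did not were examined in the deposited NAD lists of both cell types. The members are the NADs of ESCs on chromosomes 1 to 19 that share not even 1 base with a NAD of NPCs, and they number 535 of the 1706 ESC NADs on these chromosomes (31.4%). They span 122 Mb, which is 15.7% of the ESC NAD bases on chromosomes 1 to 19 and 4.95% of the length of these chromosomes. The remaining 1171 ESC NADs overlap an NPC NAD and served as comparison. The members were chosen by the position of both sets of domains, so presence in ESCs, absence in NPCs and the ESC score are descriptions of the choice and carry no test.

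The nucleolus forms around the rRNA genes and makes ribosomes. Chromatin that lies against its surface is often late replicating and poor in transcribed genes, and it shares sequences with chromatin at the nuclear lamina. Olfactory and vomeronasal receptor genes, which are silent outside sensory neurons, and clusters of zinc finger genes are known residents of such chromatin. As cells leave pluripotency, parts of the genome change their place in the nucleus.

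Nucleolar-DamID marks DNA near the nucleolus through Dam, an enzyme that adds a methyl group to the A of GATC. In H2B-Dam-NoLS lines the enzyme was fused to histone H2B and a nucleolar localization signal, and H2B-Dam control lines carried the fusion without that signal. Both constructs were inserted at Rosa26 in ESCs of the E14 line (129/Ola) by CRISPR/Cas9, and lines were grown from single resistant cells, so a change acquired by a line would be present in all its samples. Doxycycline (100 ng/ml) and Shield1 (1 µM), added for 15 h, switched on the fusion proteins in ESCs and in NPCs alike. There were 2 samples of each construct in each cell type. ESCs were kept in 2i medium with LIF, and NPCs came from embryoid bodies that had differentiated for 8 days, of which the last 4 were in retinoic acid (2 µM). RNAseq comprised 3 ESC and 3 NPC samples, each from its own culture dish, of untreated E14 cells and NPCs derived from E14 in vitro, so RNA and NADs were measured in different cultures. The labels name no batch that holds both cell types, so that batch and cell type could not be separated.

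The deposited lists give 1 score per NAD, on the authors' scale, for both experiments together, so no NAD value below has a replicate error. Lengths of the members ran from 71.2 kb to 2601 kb, around a median of 100.4 kb with quartiles of 99.5 and 299.6 kb. The resolution of the map was 100 kb, and 313 members were 1 such bin long, 75 were 2 bins and 44 were 3 bins. The share of ESC NADs without an NPC NAD fell with length, from 50.2% of the 623 NADs of 1 bin to 34.7% of 216 with 2 bins, 24.7% of 178 with 3 bins, 19.5% of 471 with 4 to 9 bins and 5.05% of 218 with 10 or more. A longer domain has more bases that can meet an NPC NAD, so this order is in part built into the choice.

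The scores of the members lay between 0.00241 and 0.184 with a median of 0.0234, against a median of 0.0271 in the overlapping ESC NADs. Among NADs of 1 bin, where length is held, the medians were 0.0243 in 313 members and 0.0368 in 310 overlapping NADs. Of the 427 ESC NADs with the lowest scores 163 were members (38.2%), and of the 427 with the highest scores 80 (18.7%). The median score of members was the lower on 16 of the 18 chromosomes with 2 or more members.

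The distance to the nearest NPC NAD had a median of 500.4 kb and quartiles of 299.7 and 1000.2 kb. In 28 members it was 0, since they ended exactly where an NPC NAD began or began where one ended, with no shared base. Just inside the threshold, the smallest gap above 0 was 235 bases, between the member at 67100558 to 67399798 on chromosome 1, which holds part of Cps1, and the next NPC NAD, followed by 344 bases for the member from 64999333 to 65099888 on chromosome 2 at Cobll1 and Grb14, and 401 bases for that from 89400325 to 89499993 on chromosome 16. Just outside it, small overlaps were 197 bases for the ESC NAD from 103000390 to 103100071 on chromosome 2 and 224 bases for that from 79600301 to 80000164 on chromosome 3. Of the overlapping ESC NADs 20 had less than 10% and 318 less than 50% of their length in NPC NADs. With those under 50% counted as members, the number was 853.

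Every start and every end in both lists, 1769 each in ESCs and 1447 each in NPCs, fell in the middle of a GATC, which is where DpnI cuts methylated DNA. Gaps and overlaps near the threshold therefore ran from a GATC site to a GATC site. The stretch that separated the nearest member from its NPC NAD is shown because it lies between 2 neighbouring sites, with no other GATC inside (plus strand of GRCm38, GATC in capitals).
gap at chr1:67399797-67400035: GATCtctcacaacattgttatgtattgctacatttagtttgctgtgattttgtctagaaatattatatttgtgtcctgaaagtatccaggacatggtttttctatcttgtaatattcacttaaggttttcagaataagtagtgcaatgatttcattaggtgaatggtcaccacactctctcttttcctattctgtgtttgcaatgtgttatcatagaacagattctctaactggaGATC

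A border that both cell types used is shown for the abutting member with the highest score, from 52199579 to 52300238 on chromosome 14 with a score of 0.0645. All of Rab2b and Tox4, 97.6% of Chd8 and 52.5% of Mettl3 lie in this member, and the NPC NAD ended at the GATC where it began.
shared border at chr14:52199559-52199598: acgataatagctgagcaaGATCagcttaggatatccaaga

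Members were found on all 19 autosomes, and each except chromosome 8 held between 14 and 48 of them. Chromosome 1 had 48, chromosome 5 had 43 and chromosomes 3 and 6 had 38 each. Relative to length, members covered 8.80% of chromosome 14, 6.99% of chromosome 19 and 6.90% of chromosome 9. Along the chromosomes the share of ESC NADs that were members was 24.6% in the fifth nearest the centromere, then 26.0%, 31.9% and 32.2%, and 42.9% in the fifth at the other end (130 of 303).

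Chromosome 8 held 1 member among 81 ESC NADs, of 699.6 kb (118299940 to 118999499) whose only protein-coding gene is the cadherin gene Cdh13, and 0.541% of its length was covered by members. NPC NADs covered 77.6% of chromosome 8, against 16.1% to 32.4% of the other autosomes. The gaps between neighbouring NPC NADs also differed there. Of 1427 such gaps 77 were under 290 kb, and all 77 were on chromosome 8, whereas the smallest of the 1749 gaps between ESC NADs was 296 kb. The list of chromosome 8 in NPCs therefore stands apart from those of the other chromosomes, and the near absence of members there rests on it. In RNAseq the median NPC minus ESC difference over the 435 tested genes of chromosome 8 was -0.19 on the log2(RPKM + 1) scale, the lowest of the 19 autosomes, which otherwise lay between -0.13 and 0.09. The part of copy number or of the calling of domains in this was not tested. Without chromosome 8 there were 534 members with 121 Mb.

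The longest member spanned 84299545 to 86900861 on chromosome 4 (2601 kb, score 0.0518) and held 11 protein-coding genes, among them Bnc2, Adamtsl1, Sh3gl2 and Rps6. Of its genes 4 were tested in RNAseq and none was called, and its nearest NPC NAD was 799.8 kb away. The next longest were a domain of 1899.8 kb on chromosome 18 (85200032 to 87099823) with the genes Cbln2 and Neto1, and a domain of 1500.5 kb on chromosome 9 (76100045 to 77600563) that abutted an NPC NAD and held Hcrtr2, Tinag and 5 other protein-coding genes. Among the shortest was a member of 93.0 kb on chromosome 5 (129699622 to 129792606) that held Mrps17, Nipsnap2 and Psph.

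The members farthest from any NPC NAD were at Atxn2 on chromosome 5 (121700160 to 121799725, 10599.5 kb away), at Foxk2 and Narf on chromosome 11 (121200041 to 121299450, 9700.1 kb) and at Mphosph9, Cdk2ap1 and Sbno1 on chromosome 5 (124299915 to 124400017, 7999 kb). All were 1 bin long. Narf had 1.26, 1.23 and 0.728 RPKM in ESCs and 5.84, 4.94 and 5.30 in NPCs, and was called higher in NPCs by the test described below. The GC contents of these members were 44.2%, 46.7% and 45.4%, all above the median of the members. The lowest score among the members, 0.00241, was that of a domain of 399.8 kb on chromosome 11 (95399998 to 95799753). This domain holds the neurotrophin receptor gene Ngfr, the prohibitin gene Phb and Spop. Phb had 7.46, 7.75 and 13.2 RPKM in ESCs and 3.44, 3.24 and 3.20 in NPCs and was called lower.

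The highest score of all 1769 ESC NADs, 0.184, belonged to a member without a protein-coding gene, from 39799879 to 39900268 on chromosome 17. The nearest NPC NAD was 599 kb away. GENCODE M21 places an rRNA gene there (39846353 to 39848827), and RefSeq places the 18S rRNA-related pseudogene Rn18s-rs5 at 39846354 to 39848202. The annotation of the pseudogene is 1849 bases long and has 8 of the 308 GATC sites of the member. Reads were aligned with default settings of Bowtie2, which reports 1 place for a read that fits several, and later filtering of such reads is not stated, so the score of this member is uncertain. The start of the annotated sequence is shown because it is an annotated relative of 18S rRNA, whose genes lie in the nucleolus (plus strand, GATC in capitals), with both borders of the member.
Rn18s-rs5 at chr17:39846354-39846553: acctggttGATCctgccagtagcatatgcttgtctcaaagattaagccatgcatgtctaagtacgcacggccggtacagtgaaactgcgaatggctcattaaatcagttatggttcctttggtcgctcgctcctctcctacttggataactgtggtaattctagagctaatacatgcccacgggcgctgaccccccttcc
start at chr17:39799859-39799898: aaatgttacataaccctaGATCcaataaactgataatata
end at chr17:39900249-39900288: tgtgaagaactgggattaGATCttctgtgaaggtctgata

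The next highest scores of members were 0.0752 at the T cell receptor subunit genes Cd3d, Cd3e and Cd3g on chromosome 9 (44899802 to 45000556), 0.0705 at Klhl7 and Nupl2 on chromosome 5 (24099782 to 24199942) and 0.0698 at Fam91a1 on chromosome 15 (58399567 to 58500648). These ranked 87 to 113 among the ESC NADs. In each of them at least 1 gene was tested in RNAseq and none was called.

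Sequence composition was not used in the choice. The members had a median GC content of 41.2% (quartiles 38.8% and 43.1%), against 39.7% (38.2% and 41.2%) in the overlapping ESC NADs and 41.9% over the autosomes as a whole. Within NADs of 1 bin the medians were 41.7% and 39.98%, and the members had the higher median on 16 of the 18 chromosomes with 2 or more members. In NADs of 1 bin with a score at or above the ESC median they were 42.7% and 40.5%. The ranges overlapped widely, with members between 35.2% and 49.9%. GATC sites, on which the method depends, had nearly equal median densities of 2.458 per kb in the members and 2.455 in the overlapping NADs. The share of bases that RefSeq masks as repeats had medians of 31.3% and 34.2%, and of 31.3% and 32.5% in NADs of 1 bin, where members had the higher median on 6 of the 18 chromosomes. CpG occurred at 0.179 and 0.173 times the number that base composition gives. Regions are not replicates and no test was made.

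Of the 20634 genes of the RNAseq tables that were placed on chromosomes 1 to 19, 1067 (5.17%) overlapped a member. This is a density of 8.76 genes per Mb, against 7.12 in the overlapping ESC NADs and 8.38 on the autosomes. In NADs of 1 bin the densities were nearly the same, 13.7 and 13.5. Since any overlap of the gene body counts, short domains gain genes at their borders. By transcription start the densities were 7.02 in the members, 6.27 in the overlapping NADs and 8.32 on the autosomes, so that the members lay above the autosomes by any overlap and below them by start. For 1 bin they were 9.11 in members and 8.44 in overlapping NADs. A gene of the tables was present in 390 of the 535 members.

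Olfactory receptor genes were the largest of the gene families examined, with 93 Olfr genes in 14 members, which is 8.25% of the 1127 on the autosomes, beside 5.17% of all genes. The overlapping ESC NADs held 35.8% of the Olfr genes and 22.6% of all genes. A member on chromosome 7 (106400018 to 107300837) held 26 Olfr genes, and members on chromosome 2 (88300122 to 88600094) and chromosome 11 (49400107 to 49700156) held 14 and 10. In RNAseq all 93 were below 1 RPKM in both cell types, and 74 were at 0 in all samples. The 17 vomeronasal receptor genes (Vmn, 5.20% of the family) lay in 5 members and were at 0 in all samples. Of the zinc finger genes with Zfp symbols 16 lay in members (4.16% of 385), near the 5.17% of all genes. The overlapping NADs held 38.4% of that family, beside 22.6% of all genes. The members with most genes after the Olfr domain were one of 20 genes on chromosome 16 (88600324 to 88999953), of which most belong to the keratin-associated proteins of hair, and one of 17 genes on chromosome 7 (105300609 to 105699673).

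RNAseq values were deposited as RPKM (read counts divided by gene length and by the size of the library). ESC replicate 3 stood apart from the other ESC samples. On the log2(RPKM + 1) scale its correlation across genes with ESC replicates 1 and 2 was 0.979 and 0.980, whereas that between these was 0.999 and those among the NPC samples were 0.998 to 0.999. It differed from the mean of ESC replicates 1 and 2 by at least 1 in 335 of 7219 tested genes and in 10 of the 286 tested genes of the members, whereas ESC replicates 1 and 2 differed by at least 1 in none. For the genes of the members its median deviation was -0.15, against -0.02 over all tested genes. Results are therefore given also without it.

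Markers were read to check the labels. Pou5f1, the core pluripotency factor, had 130.0, 136 and 202 RPKM in ESCs and 0.0558, 0.0386 and 0.0651 in NPCs. The 10 markers of neural progenitors summed to 39.97, 41.4 and 49.8 RPKM in ESCs and 94.2, 100.6 and 105 in NPCs, with Vim, at 44.0, 44.0 and 48.8 RPKM in NPCs, the most abundant. The Vim values of the ESC samples, 35.3, 37.4 and 45.9 RPKM, overlapped these. The 9 markers other than Vim were higher in all NPC samples than in all ESC samples. Nes had 29.8, 32.7 and 29.4 RPKM in NPCs and Sox3 had 7.01, 8.89 and 10.5, whereas other markers were low, with Pax6 at 1.55, 1.42 and 1.67 and Hes5 at 2.50, 3.57 and 3.51 RPKM in NPCs, and Hes5, Olig2 and Neurog2 were at 0 in all ESC samples. The NPC samples also had markers of other cells. The 8 markers of fibroblasts and mesenchyme summed to 0.295, 0.319 and 0.184 RPKM in ESCs and 68.5, 80.1 and 79.4 in NPCs, led by Twist1 and Col1a1, while Dcn and Lum stayed below 0.1. The 10 markers of mesoderm and endoderm summed to 2.38, 2.50 and 1.91 in ESCs and 17.0, 18.4 and 17.8 in NPCs, led by Gata6, with Cer1 at 0 in all samples. The early mesoderm and primitive streak markers T, Eomes and Mixl1 went the other way and were lower in all NPC samples than in all ESC samples. The 8 neuron markers summed to 11.6, 12.7 and 14.9 RPKM in ESCs and 8.77, 7.53 and 8.97 in NPCs. That sum followed Tubb3, the most abundant, and Stmn2, which were lower in NPCs, whereas the other 6 were higher in all NPC samples, with Dcx at 0 in ESCs and at 1.05, 0.821 and 0.874 RPKM in NPCs. The 6 neural crest markers summed to 8.70, 9.07 and 7.94 RPKM in ESCs and 3.06, 2.86 and 2.73 in NPCs. Foxd3, the most abundant in ESCs, and Tfap2a were lower in NPCs and the other 4 higher, with Tfap2b at 0 in ESCs. In bulk RNA, fewer cells of a type and less RNA per cell cannot be told apart, and the part of these other cells in the results below was not tested.

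Most genes of the members were silent or low in both cell types. Of the 1067 genes, 746 (69.9%) had a mean below 1 RPKM in ESCs and in NPCs, 28 reached 1 RPKM in ESCs and not in NPCs, 87 in NPCs and not in ESCs, and 206 in both. Over all 20634 genes on chromosomes 1 to 19, 776 reached it in ESCs alone and 1624 in NPCs alone, a tilt of the same direction. The share below 1 RPKM in both was 62.0% over all genes on chromosomes 1 to 19. It was 67.4% in overlapping ESC NADs and 59.2% for autosomal genes in no NAD of either cell type. Genes of members with a score at or above the ESC median were below in 63.0% and those of members with a lower score in 76.1%.

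Genes with a mean of at least 1 RPKM over the 6 samples were tested with limma over all 7219 such genes and called at an adjusted p below 0.05 with a difference of at least 1 on the log2(RPKM + 1) scale. That filter passed 286 genes in 165 members, and the other 781 genes were not tested. Of the 286, 50 were called higher in NPCs (17.5%), beside 15.1% of all tested genes, and 23 were called lower (8.04%), beside 12.3%. The overlapping ESC NADs had 10.6% called higher and 7.16% called lower of 1327 tested genes, and genes in no NAD of either list had 15.8% and 14.1% of 4918. In the members the share called higher lay near that of all tested genes and the share called lower was below it. With only the 204 tested genes whose whole body lies in a member, 17.6% were called higher and 10.8% lower. Of the called genes of the members by any overlap 68.5% were higher in NPCs, against 55.0% over all tested genes. With a mean of at least 5 RPKM these shares were 61.5% (8 of 13 genes) and 39.1%, and by adjusted p alone 58.8% and 49.0%. The median NPC minus ESC difference of the 286 genes was 0.09, against -0.04 over all tested genes. It was 0.05 without ESC replicate 3 (-0.06 over all tested genes) and 0.14 without ESC replicate 1 (-0.03 over all tested genes). After quantile normalization it was 0.01 (-0.09 over all tested genes), and with a mean of at least 5 RPKM -0.13 (-0.35 over all tested genes). Its size and sign therefore depend on these choices, and in each of them it lay above the median over all tested genes. Without ESC replicate 3, 44 were called higher and 21 lower, of which 44 and 19 were also called with it.

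By domain, 41 of the 535 members held a gene that rose and 19 a gene that fell, with 1 member holding both. A further 106 members had tested genes of which none was called, 225 had genes of which none was tested and 145 had no gene of the tables. The overlapping ESC NADs were not counted in this way, so these numbers describe the members alone. Of members at or above the ESC median score, 27 genes rose (16.2%) and 11 fell (6.59%) among 167 tested. Of members with a lower score, 23 genes rose (19.3%) and 12 fell (10.1%) among 119 tested. The shares over all tested genes were 15.1% and 12.3%.

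The gene of the members that rose most was Foxd2, a forkhead transcription factor, which lies whole within a member on chromosome 4 (114900318 to 115098655, score 0.0243). It had 0.0113, 0 and 0.0125 RPKM in the ESC samples and 7.72, 7.91 and 8.32 in the NPC samples. All NPC samples were above all ESC samples, by 3.16 ± 0.06 (SE) on the log2(RPKM + 1) scale (limma, adjusted p = 1.8e-07). The SoxF transcription factors Sox18 and Sox7, which act in blood vessel and early endoderm development, also rose. Sox18 had 0.0651, 0.0329 and 0.0540 RPKM in ESCs and 7.04, 8.34 and 7.36 in NPCs (difference 3.03 ± 0.08, limma, adjusted p = 3.1e-07), and it lies in a member on chromosome 2 (181500023 to 181900307) that is 3400.6 kb from an NPC NAD. Sox7 had 0.0666, 0.0630 and 0.0368 RPKM in ESCs and 2.90, 2.86 and 2.51 in NPCs (difference 1.83 ± 0.06, limma, adjusted p = 7.1e-07) and lies on chromosome 14 in a member with a low score of 0.00630.

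Acta2, the actin of smooth muscle and one of the mesenchyme markers above, had 0.0103, 0.00624 and 0.00228 RPKM in ESCs and 2.76, 3.10 and 3.76 in NPCs, a rise of 2.06 ± 0.09 (limma, adjusted p = 3.2e-06). The rises of Acta2, Sox7 and Sox18 went along with those of the mesenchyme and the mesoderm and endoderm markers in the same samples, whose part was not tested. Alcam, a cell adhesion molecule, had 0.00501, 0.00477 and 0.00158 RPKM in ESCs and 2.99, 2.45 and 2.29 in NPCs (difference 1.83 ± 0.08). Only 26.7% of its body lies in the member, with the start, and another part overlaps an NPC NAD.

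Other genes among the 12 with the largest rise were Stbd1, a glycogen-binding protein (2.53), Pea15a, a phosphoprotein that binds ERK kinases (2.46), the semaphorin Sema4g (1.96), Gm7694 (1.78), Pced1a (1.76) and Smpd1, the acid sphingomyelinase of lysosomes (1.72), with adjusted p between 3.2e-07 and 7.8e-06 in limma. Genes already transcribed in ESCs were among them: Smpd1 had 1.82, 2.02 and 1.79 RPKM in ESCs and 9.48, 8.02 and 8.05 in NPCs. Of Pea15a and Gm7694 only 27.3% and 20.6% of the body overlaps a member and the start lies outside. In all 12 the NPC samples lay above the ESC samples, which the choice of the largest called rises largely fixes. Without ESC replicate 3 the differences were between 1.70 and 3.16.

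Among genes that fell, Rbmxl2, a retrogene for an RNA-binding protein known from male germ cells, stood first. It had 31.5, 34.7 and 38.1 RPKM in ESCs and 0, 0.0249 and 0 in NPCs, and fell by 5.14 ± 0.09 on the log2(RPKM + 1) scale (limma, adjusted p = 1.8e-07). It was the only tested gene of the 28 genes in the member on chromosome 7 that holds 26 Olfr genes (106400018 to 107300837, score 0.0292). All ESC samples were high and all NPC samples at or near 0, and the Olfr genes around it were below 1 RPKM in both cell types.

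Prr23a3 on chromosome 9 had 6.02, 5.94 and 5.33 RPKM in ESCs and 0.0365, 0.0202 and 0.0341 in NPCs, and fell by 2.71 ± 0.06 (limma, adjusted p = 2.5e-07). Fgf17, a secreted growth factor, and Dmtn, which binds actin filaments, are neighbours on chromosome 14 in a member with a score of 0.0107 (70300196 to 70799783). Fgf17 had 2.68, 3.14 and 4.37 RPKM in ESCs and 0.0219, 0 and 0.0255 in NPCs, and Dmtn had 3.52, 3.88 and 2.97 in ESCs and 0.140, 0.166 and 0.119 in NPCs. They fell by 2.10 ± 0.14 and 1.96 ± 0.08 (limma, adjusted p = 2.2e-05 and 2.9e-06). All ESC samples were above all NPC samples for both genes, and ESC replicate 3 was the highest ESC sample for Fgf17 and the lowest for Dmtn.

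Bpnt1, a nucleotidase, had 5.20, 5.25 and 4.04 RPKM in ESCs and 0.775, 0.781 and 0.765 in NPCs (fell by 1.71 ± 0.10, limma, adjusted p = 1.2e-05), and Psph, the last enzyme of serine synthesis, had 2.87, 2.80 and 3.79 in ESCs and 0.645, 0.694 and 0.737 in NPCs (fell by 1.29 ± 0.10, limma, adjusted p = 5.5e-05). Psph lies in the member of 93.0 kb described above. The rest were Gm10772, 2410141K09Rik, Timm8a2, related to a factor of mitochondrial protein import, Gm14443, Eef1e1, a subunit of the aminoacyl-tRNA synthetase complex, and Nudt17. Gm10772 had 5.43, 4.20 and 3.58 RPKM in ESCs and was listed at 0 in all NPC samples, and the others fell by 1.27 to 2.07. Gm10772 and 2410141K09Rik lie in the same member on chromosome 13 (66200554 to 66500602). The ESC samples lay above the NPC samples in each of the 12, which the choice of the largest called falls largely fixes. Without ESC replicate 3 the differences were between -5.08 and -1.18.

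By any overlap, members held 13 of the 66 synapse and neurotransmitter receptor genes on chromosomes 1 to 19 (19.7%), 9 of 52 ion channel genes (17.3%), 7 of 68 genes of axon guidance and neurite growth (10.3%) and 6 of 77 neural transcription factors (7.79%), beside 5.17% of all genes. By transcription start the shares were 9.09%, 5.77%, 4.41% and 6.49%, beside 4.14% of all genes. The first 3 lists consist of long genes, with median lengths of 415.8, 287.9 and 164.4 kb against 17.6 kb over all genes, and a long gene meets a domain more easily. Few of these genes passed the filter. Of the 6 neural transcription factors 2 were tested, of which 1 was called higher in NPCs and none lower. The other, Irx2, had 2.05, 1.98 and 2.71 RPKM in ESCs and 1.47, 1.56 and 1.83 in NPCs and was not called, with a difference of -0.31 ± 0.11 (limma, adjusted p = 0.040). Over all tested genes of that list, 17 of 23 rose and 4 fell. Of the 7 axon guidance and neurite growth genes none was tested, and the highest was Crmp1, which steers neurite growth, with 0.182, 0.161 and 0.128 RPKM in ESCs and 0.831, 0.758 and 0.821 in NPCs. The 13 synapse and neurotransmitter receptor genes were all below the filter, with Tenm4 highest at 0.295, 0.268 and 0.241 RPKM in NPCs. The 9 ion channel genes were all below the filter, and the potassium channel Kcnj2 had 1.29, 1.06 and 1.03 RPKM in NPCs and at most 0.00610 in ESCs. Of the 70 keratinocyte and epidermal genes on chromosomes 1 to 19, Serpinb3a alone (1.43%, beside 5.17% of all genes) lay in a member, and it was at 0 in all samples. That list leaves out the keratin-associated protein genes of the member on chromosome 16 described above, so this share depends on which genes were listed.

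Of the 57 genes of the pluripotency network on chromosomes 1 to 19, 0 overlapped a member, beside 5.17% of all genes, a share at which few would be met in a list of this size. Of the Zfp genes in members 8 were tested, of which 2 were called higher and none lower, beside 15.1% and 12.3% of all tested genes, which so few genes cannot be set apart from. Zfp9 had 0.108, 0.0751 and 0.0524 RPKM in ESCs and 2.29, 2.27 and 2.39 in NPCs, a difference of 1.62. Zfp512b had 6.04, 5.82 and 2.62 RPKM in ESCs and 12.3, 12.7 and 11.5 in NPCs, a difference of 1.24 that was 0.93 without ESC replicate 3, below the size that counts as called.

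Promoters are given for the gene of the members that rose most and the one that fell most, as the 250 bases before the start in RefSeq (GRCm38.p6, strand of the gene). Both strands were searched for the TATA box (TATAAA), the CCAAT box (CCAAT), the GC box (GGGCGG), a nuclear receptor site (AGGTCA), the octamer (ATGCAAAT) and the Dam site (GATC), and matches on either strand are in capitals. Foxd2 held matches to the GC box, present in 32.7% of the 32851 promoters of the reference, and Rbmxl2 matches to the GC box and to the CCAAT box, present in 33.8%. Among 799 promoters of 679 genes that start in members, the GC box was present in 41.2% and the CCAAT box in 33.3%. The other motifs, present in 12.4% (TATA box), 14.0% (nuclear receptor site), 1.60% (octamer) and 41.9% (Dam site) of promoters, had no match in either window. Both are rich in G and C (64.4% for Foxd2 and 70.0% for Rbmxl2, against a median of 52.4%).
Foxd2 at chr4:114908899-114909148, minus strand: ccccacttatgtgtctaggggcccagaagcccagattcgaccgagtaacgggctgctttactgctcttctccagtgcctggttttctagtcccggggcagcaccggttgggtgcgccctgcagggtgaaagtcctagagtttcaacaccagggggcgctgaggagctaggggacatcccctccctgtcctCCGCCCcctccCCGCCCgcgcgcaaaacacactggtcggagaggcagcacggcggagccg
Rbmxl2 at chr7:107209195-107209444, plus strand: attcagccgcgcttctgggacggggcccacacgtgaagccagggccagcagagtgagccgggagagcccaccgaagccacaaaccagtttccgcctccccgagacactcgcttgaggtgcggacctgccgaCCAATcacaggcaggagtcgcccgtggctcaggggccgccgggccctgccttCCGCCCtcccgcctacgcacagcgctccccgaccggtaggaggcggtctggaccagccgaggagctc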

How the data were processed

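The authors aligned Nucleolar-DamID reads to mm10 (GRCm38) with Bowtie2, binned them at 100 kb into GATC fragments, set H2B-Dam-NoLS against H2B-Dam with the damidseq pipeline, called peaks and kept those common to both replicates. They deposited 1 NAD list per cell type with a score per NAD, on their own scale, for both replicates together. RNAseq values are the RPKM that the authors deposited for each cell type, for which the labels and the methods name different library kits, only the latter stranded. Whether counting used strand, and how reads with several places were counted, is not given, so values of overlapping and antisense genes are uncertain. Counts are not used here, so limma replaced a count test. Starts of the lists count from 0 and are printed 1 higher. Genes were placed with GENCODE M21 and, where a symbol was missing, RefSeq (21769 of 21909 symbols, lines of a symbol averaged). Steps between low RPKM values gave 0.991, 0.904, 0.885, 0.801 and 0.948 times the reads of ESC replicate 1 in ESC replicates 2 and 3 and NPC replicates 1 to 3. No pair of samples agreed within sampling noise (1.47 was the lowest chi-square per gene, ESC replicates 1 and 2). The test was limma 3.58.1 in R 4.3.3 (lmFit, eBayes with trend) on log2(RPKM + 1), with Benjamini-Hochberg adjustment, tested on simulated data. Other steps used Python 3.11.15, numpy 2.4.6 and pandas 2.3.3. Named genes are the 12 called with the largest rise and fall in members, and in each gene list the 2 called with the largest rise, the 2 with the largest fall and the highest in RPKM. Named NADs are the longest 3, shortest 2, 5 highest and 1 lowest in score, 3 with most genes and 3 farthest from and nearest to an NPC NAD. Some results under this rule are not reported here. Other names were chosen after their values were seen. The members and lists were chosen with earlier results of these data known. LADs, HiC and ChIPseq are not analysed here.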

Additional observations from a re-analysis of the deposited data

How the results depend on the processing

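The number and span of members were 853 and 360.0 Mb when ESC NADs with under 50% of their length in NPC NADs were counted, and 208 and 42.0 Mb with only ESC NADs at or above the median score. Joining NPC NADs under 290 kb apart, an alternative chosen after seeing the data, gave 535 members. Under the other alternatives there were 406 to 555. Called genes over the genome, in members, higher and lower were 885, 13, 8 and 5 with a mean RPKM of at least 5, which tests fewer genes, and 4895, 194, 114 and 80 by adjusted p alone. They were 2699, 108, 75 and 33 with 0.1 added to RPKM in place of 1, and 1843, 70, 43 and 27 after quantile normalization. With only members at or above the median score, which holds fewer genes, 38 were called in members, 27 higher and 11 lower. Leaving out 1 sample in turn gave 1792 to 2148 calls over the genome and 65 to 84 in members, with 44 to 58 higher and 21 to 26 lower. The replicate block gave 1983, 73, 50 and 23, and the numbers share no pairing: same-numbered ESC and NPC samples deviated with correlations of 0.113, -0.0817 and 0.0323. Gene density in members was 7.02 per Mb by transcription start. By any overlap, through which short domains gain genes at their borders, it was 8.76 in all members. By that measure it was 18.4 in members of the shortest length class at or above the median score. The median GC content of these was 42.7%, and the cause was not tested. Of the 50 and 23 genes called higher and lower in members, 43 and 21 kept their call after quantile normalization. The 24 of them named for their large rise or fall were chosen in these samples, so they are less likely to lose it. They kept their direction and call in all 314 combinations of gene and alternative that could be run. Of 67 such combinations for Narf, Phb, Zfp9, Zfp512b and Irx2, 65 kept both, Zfp512b was not called without ESC replicate 3 and Irx2 was called by adjusted p alone. Alternatives were not read for the other genes named. The lists have no replicate values, and relative depth limits only the RNAseq values.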
